A study of Mus musculus with 4 samples.

Results

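Genes that are active in the embryo, quiet in most adult tissue and often switched on again in tumours were followed through 4 mouse lung tumours. The 10 genes were Hmga1, Hmga2, Igf2bp1, Igf2bp2, Igf2bp3, Lin28b, Igf2, H19, Dlk1 and Meg3, chosen by symbol as the 10 rows of the table of 39017 genes that carry these names. The tumours came from male KP mice on a C57BL6/J background, which carry p53Fl/Fl among their alleles and in which Cre recombinase starts lung adenocarcinoma and deletes Trp53. Each mouse had received 1500 viral units of lenti.PGK-Cre through the trachea, and the PGK promoter that drives Cre is not restricted to a cell type. Tumours were harvested 22 weeks plus 5 days after they had been started, cut out of the lung by eye and dissociated to single cells before RNA was taken from the whole suspension. All 4 tumours belong to 1 group, the controls of a study that asked which glucose transporters such tumours need, so the data hold levels and their spread between tumours and no comparison of conditions. Per the labels every mouse was heterozygous (fl/wt) for a gene that they do not name. The column names of the deposited log2 values say WT for all 4, and the methods allow control mice to be either Slc2a1 wild type or carriers of 1 floxed Slc2a1 allele. Nothing in the labels ties a tumour to an animal, so the p-values below measure only the spread between these 4 samples.

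The genes form a small developmental network. HMGA1 and HMGA2 are chromatin proteins that bend AT-rich DNA, and the 3 IGF2BP proteins bind and stabilise messenger RNAs, Igf2 among them. LIN28B blocks the maturation of the let-7 microRNAs, which in turn repress Hmga2, Lin28b and the Igf2bp genes, so that embryonic cells hold LIN28 and its targets high and let-7 low. Igf2, a growth factor, and H19, a noncoding RNA, are imprinted neighbours expressed from opposite parental chromosomes, and Dlk1, a membrane protein of the Notch ligand family, and Meg3, a noncoding RNA, are a second such pair. In mouse lung adenocarcinoma Hmga2 is widely used as a mark of late, poorly differentiated tumours that have lost lung identity.

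Total counts lay between 8151613 and 8799007 per tumour, a ratio of 1.08 between the largest and the smallest. Levels are given as CPM, counts per 1000000 reads after scaling by the TMM method, and 3 counts, taken as the floor because they are the one-sided 95% limit that a count of 0 allows, equalled 0.330 to 0.370 CPM. In RNA from a whole suspension, fewer cells of a type and less RNA per cell cannot be told apart.

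Dlk1 and Meg3 had the highest mean levels of the 10 genes, although in tumour 1 Dlk1 lay below Hmga1 and H19, Hmga1, Hmga2 and Igf2bp2 were low but present in every tumour, and Igf2 and H19 had more than 9 counts in tumour 1 alone. Igf2bp1, Igf2bp3 and Lin28b did not exceed 3 counts in any tumour. The 7 genes with a mean of at least 1 CPM were tested for spread beyond counting noise, with a chi-square comparison of their counts to those that Poisson sampling would give and Benjamini-Hochberg adjustment over 14225 genes. All 7 tested genes passed, but so did 76.7% of all genes tested, so passing does not set them apart. Of these 7, Igf2 and H19 fell below the minimum of 1 CPM once tumour 1 was left out, so they could enter only by differing.

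The size of the spread was described by the biological coefficient of variation from edgeR, the variation between tumours that remains after counting noise, beside its value for genes of like abundance. It lay above that trend for 7 of 7 genes, where 23.1% of all genes did. Among the 5 genes that kept the minimum without their highest tumour it lay above the trend for 5 of 5, beside 22.0% of the 13799 genes of that kind. The median SD of log2 CPM over those 5 was 1.15, against 0.29 over the 13799. No tumour stood apart for any of the 7 genes by Dixon's ratio on the log2 scale (0 of 7), a call made for 5.86% of all genes tested.

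No tumour carried the highest level of all of them. Of the 7 genes, 3 were highest in tumour 1 (Hmga1, Igf2 and H19), 3 in tumour 2 (Hmga2, Igf2bp2 and Dlk1) and 1 in tumour 3 (Meg3), while tumour 4 held neither the highest nor the lowest value of any.

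**Figure D1:**
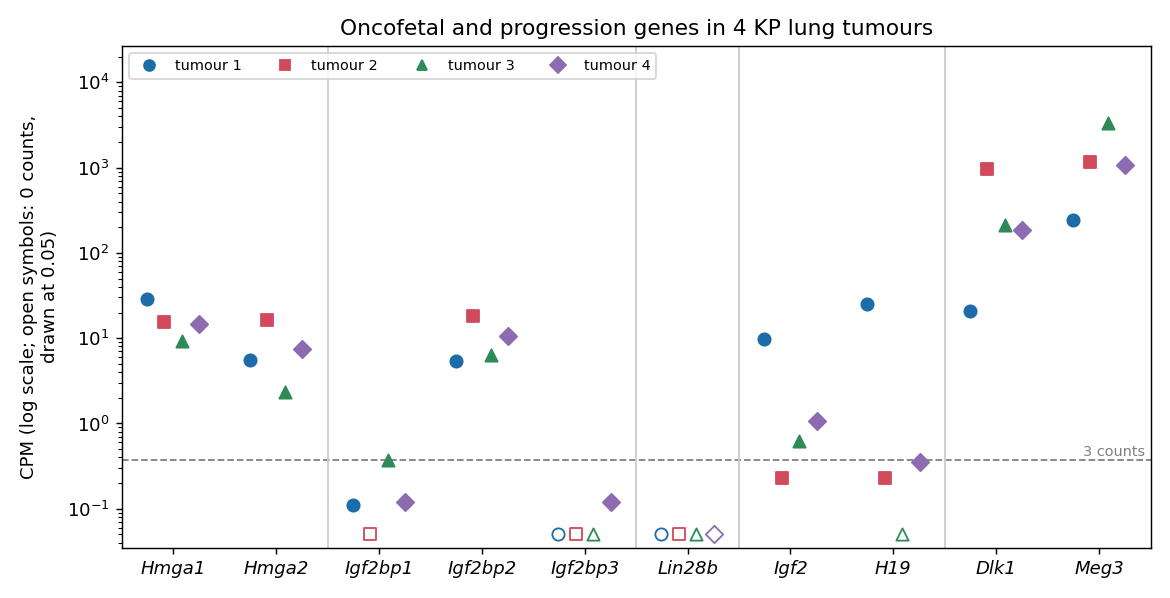
CPM of the 10 genes (log axis) in each of the 4 tumours, 1 symbol per tumour, with open symbols for a count of 0 and a dashed line at 3 counts in the shallowest tumour. Meg3 reached 3338 CPM in tumour 3 and Dlk1 973 CPM in tumour 2, whereas Igf2bp1, Igf2bp3 and Lin28b stayed on or below the line.

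**Figure D2:**
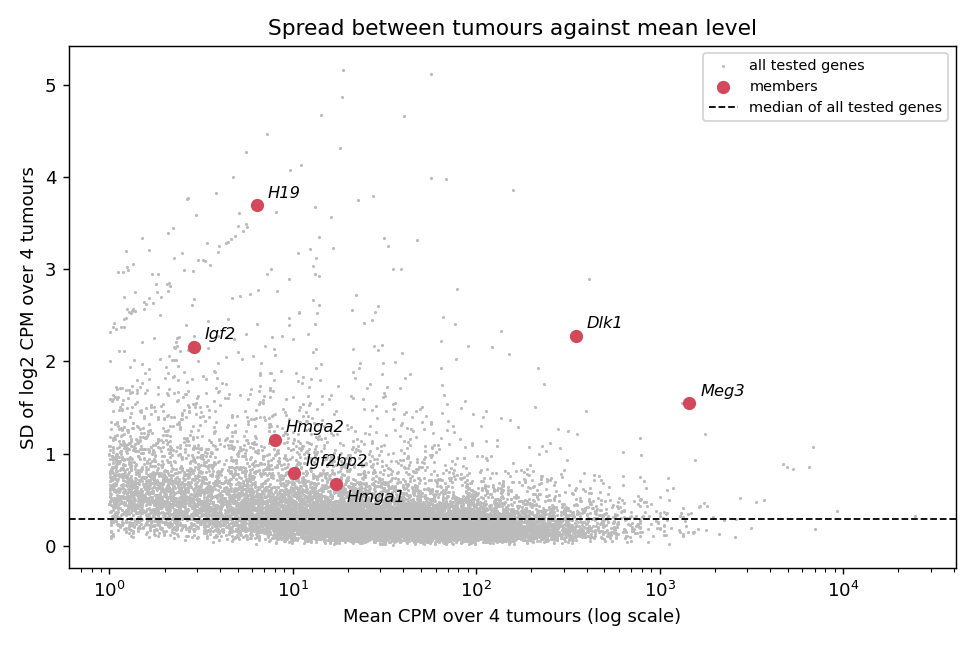
SD of log2 CPM over the 4 tumours against mean CPM (log axis) for all 14225 tested genes (grey) and the 7 tested members (red), with the median of all genes, 0.29, as a dashed line. All 7 members lie above the median, from Hmga1 at 0.67 to H19 at 3.70.

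Hmga1 (ENSMUSG00000046711, chr17:27556497-27563674 on the plus strand of GRCm38) was measured at 29.2, 15.3, 9.38 and 14.9 CPM in tumours 1 to 4, with a mean of 17.2 ± 8.43 (SD, n = 4). Tumour 1 was the highest and tumour 3 the lowest, with tumours 2 and 4 together in between, and the ratio of highest to lowest was 3.11 (95% counting interval 2.40 to 4.07). The adjusted chi-square p was 3.0e-22, and the SD of log2 CPM, 0.67, exceeded that of 86.3% of all tested genes and was 0.39 without tumour 1.

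The end of Hmga1 overlaps AI413582 on the opposite strand, measured at 7.02 to 12.1 CPM, and the strand setting of the counting was not given in the sources used here.

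Hmga2 (ENSMUSG00000056758, chr10:120361275-120476469, minus strand) followed another order, with 5.50, 16.5, 2.34 and 7.49 CPM in tumours 1 to 4 (mean 7.96 ± 6.07, SD, n = 4). Tumour 2 was the highest, and its counting interval, 13.9 to 19.4 CPM, did not meet that of any other tumour, while those of tumours 1 and 4 overlapped. Highest and lowest differed 7.03-fold (4.34 to 12.0), the adjusted chi-square p was 1.9e-24, and the coefficient of variation was 58.8% where genes of like abundance had 40.3%.

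Per kilobase of annotated exon, Hmga1 exceeded Hmga2 in 4 of 4 tumours, by 4.07, 1.57, 3.64 and 2.65 on the log2 scale (mean 2.98 ± 1.11, SD, n = 4). The gap was smallest in tumour 2, the tumour with the most Hmga2. With the length of the longest transcript the mean was 2.24, and with no length correction it was 1.31, with Hmga1 the higher in 3 of 4 tumours. A two-sided exact permutation test that flips signs gave p = 0.13, the smallest it can give with 4 tumours, and 0.292 after adjustment over 7 pairs of related genes, so no pair in this design could pass 0.05.

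The patterns of the pair across tumours had different company. Of 10268 genes with a mean of at least 10 CPM, 265 lay within 0.25 of Hmga1 in root mean square distance of centred log2 CPM, among them Lmna, which encodes the nuclear lamins A and C, and Tnfrsf12a, the receptor of the cytokine TWEAK. For Hmga2 only 2 genes of 10269 came that close. They were Bgn, the matrix proteoglycan biglycan, at 402, 1268, 239 and 612 CPM, and Pthlh, parathyroid hormone-like peptide, at 18.8, 52.4, 8.02 and 18.8 CPM. With 4 points each, such likeness is a description of these tumours.

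Hmga2 is the best known target of let-7, and the 3′ untranslated regions of the network carry the sites. The sequences are shown because Hmga2, Igf2bp2 and the 3 genes at the floor differ in level while sharing this feature. The mature microRNAs below, from RefSeq on GRCm38.p6, carry their seed, bases 2 to 8, in capitals, and all share it.
mmu-let-7a-5p: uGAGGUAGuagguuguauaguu
mmu-let-7b-5p: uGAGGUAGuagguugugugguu
mmu-let-7g-5p: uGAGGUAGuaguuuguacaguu
mmu-let-7i-5p: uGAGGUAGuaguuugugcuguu
mmu-miR-98-5p: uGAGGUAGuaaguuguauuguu

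The complement of that seed, CTACCTC, was searched on the transcribed strand of the longest annotated 3′ untranslated region of each protein-coding gene. It occurred 4 times in Hmga2, 4 times in Igf2bp1, 4 times in Lin28b and 1 time each in Hmga1, Igf2bp2 and Igf2bp3, and in neither Igf2 nor Dlk1. Of 21020 genes, 9.02% held at least 1 match and 0.0571%, 12 genes, at least 4. The sites below are read 5′ to 3′ on the transcribed strand from GENCODE M21, with the match in capitals. The list is partial, since of the 4 matches each in Igf2bp1 and Lin28b only 1 is shown.
Hmga1, chr17:27563276-27563305: ctcctctgttcacaaaCTACCTCtggacgg
Hmga2, chr10:120364218-120364247: cgccgacattcaatttCTACCTCagcatca
Hmga2, chr10:120362981-120363010: tccccactcctcaataCTACCTCtgaatgc
Hmga2, chr10:120362543-120362572: cctgatttgcaaggaaCTACCTCcacactt
Hmga2, chr10:120361685-120361714: caatcaaaacacactaCTACCTCttaagtc
Igf2bp1, chr11:95959351-95959380: ccagcagtgctattaaCTACCTCagcccca
Igf2bp2, chr16:22059467-22059496: aacacacaaataaaagCTACCTCaggtgtt
Igf2bp3, chr6:49086781-49086810: gtgcatttttactcaaCTACCTCaggtatt
Lin28b, chr10:45381016-45381045: cacccgggcgggaagtCTACCTCatgcaag

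A match of these letters is a description and not a measured binding site. Mature let-7 is too short for libraries of polyadenylated RNA, and the 10 let-7 and miR-98 precursor genes in the table had at most 1 count in any tumour, so let-7 itself was not measured. Genes with 4 matches were found both among those with reads in every tumour (Hmga2) and among those at the floor (Igf2bp1 and Lin28b).

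Lin28b (ENSMUSG00000063804, chr10:45376620-45486395, minus strand) had 0 counts in each of the 4 tumours, which allows a level of up to 0.330 to 0.370 CPM by that one-sided limit and of up to 0.406 to 0.455 CPM by a two-sided 95% Poisson interval. Its paralogue Lin28a, the other inhibitor of let-7 maturation, had 1, 1, 3 and 1 counts in tumours 1 to 4, so both were at or under the floor and no ratio was formed. No gene overlaps Lin28b in the annotation. Neither LIN28 gene was therefore detectable above 3 counts at this depth, in tumours where Hmga2 had 19 to 142 counts.

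Of the IGF2-binding proteins, Igf2bp2 (ENSMUSG00000033581, chr16:22059009-22163299, minus strand) was the member with reads in every tumour, at 5.39, 18.2, 6.42 and 10.7 CPM in tumours 1 to 4 (mean 10.2 ± 5.84, SD, n = 4). Tumour 2 was again the highest, while tumours 1 and 3 had overlapping counting intervals. The ratio of highest to lowest was 3.38 (2.44 to 4.76), with an adjusted chi-square p of 4.9e-18 and an SD of log2 CPM of 0.79, above that of 90.0% of tested genes, which was 0.51 without tumour 2.

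Igf2bp1 (ENSMUSG00000013415, chr11:95957163-96005940, minus strand) had 1, 0, 3 and 1 counts, and Igf2bp3 (ENSMUSG00000029814, chr6:49085223-49214957, minus strand) 0, 0, 0 and 1. Per kilobase Igf2bp2 was 64.1 times Igf2bp1 in tumour 1 (95% counting interval 11.0 to 2583), 22.7 times in tumour 3 (7.34 to 114) and 118 times in tumour 4 (20.6 to 4701), and at least 68.5-fold higher in tumour 2, where Igf2bp1 had 0 counts. Igf2bp3 had 0 counts in tumours 1 to 3, where Igf2bp2 was at least 18.0, 57.7 and 19.1-fold higher, and in tumour 4 the ratio was 99.2 (17.4 to 3961). Both differences held in 4 of 4 tumours, with p = 0.13 by the exact sign-flip permutation test and 0.292 after adjustment.

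Igf2bp3 shares 1529 nt of exon with Malsu1, a mitochondrial ribosome factor on the opposite strand at 12.2 to 15.7 CPM, where counting without strand could lose its reads. Igf2bp2 has no annotated overlap or near-identical copy. Genes with patterns close to that of Igf2bp2 included Cyp1b1, a cytochrome P450, Gramd1b, a cholesterol transfer protein, and Atp2a3, a calcium pump, among 26 of 10268 within 0.25.

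Most of the wider let-7 machinery was present in every tumour. Of 12 genes of the let-7 pathway, 11 were abundant enough to test, all but Lin28a. Of these 11, 9 passed the chi-square test, near the 76.7% of all genes. The median SD of log2 CPM of the 11 was 0.22, below the 0.29 of all tested genes. The most abundant were Hnrnpa1, an RNA-binding protein, at 223 to 303 CPM, Zcchc6, a terminal uridylyltransferase, at 136 to 161, and Ago2, the slicing Argonaute, at 93.4 to 130.

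Trim71 and Zcchc11 varied most. Trim71, a stem cell ubiquitin ligase and itself a let-7 target, was measured at 11.9, 0, 0.247 and 1.55 CPM in tumours 1 to 4. Zcchc11, the uridylyltransferase recruited by LIN28A to pre-let-7, was measured at 94.3, 49.3, 23.3 and 44.6 CPM. Both were highest in tumour 1, where Hmga1, Igf2 and H19 were also highest. Trim71, 1 of the 9 genes passing, fell below the minimum of 1 CPM once tumour 1 was left out. Like Igf2 and H19, it could enter only by differing.

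Igf2 (ENSMUSG00000048583, chr7:142650766-142666816, minus strand) was measured at 9.68, 0.232, 0.617 and 1.07 CPM in tumours 1 to 4, from 88, 2, 5 and 9 counts. Tumour 1 was far the highest, with a counting interval of 7.77 to 11.9 CPM that lay above those of the other 3, while tumours 3 and 4 were only a few counts over the floor and tumour 2 under it. The ratio of tumour 1 to tumour 2 was 41.7, with a wide interval of 11.2 to 350 because tumour 2 had only 2 counts.

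H19 (ENSMUSG00000000031, chr7:142575529-142578143, minus strand) stood at 24.9 CPM in tumour 1 and at 0.232, 0 and 0.357 CPM in tumours 2, 3 and 4, from 226, 2, 0 and 3 counts. Tumours 2 to 4 were thus at or under the floor, and tumour 1 was at least 67.2-fold higher than tumour 3. Its SD of log2 CPM, 3.70, ranked 20 among 14225 genes, and that of Igf2, 2.16, ranked 157, a place that the single tumour 1 decides. The coefficient of variation was 162% for H19 and 104% for Igf2, beside trends of 42.0% and 47.0%.

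In tumour 1, the only tumour in which both rose over the floor, H19 CPM was 2.57 times Igf2 CPM, and per kilobase the gap was 2.57 on the log2 scale in favour of H19. In tumours 2 to 4 H19 was at or under the floor, so no mean difference over the tumours is drawn for this pair.

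H19 is also the host of miR-675, which is cut from its first exon. The mature forms, from RefSeq on GRCm38.p6, are shown with the seed in capitals because H19 carries them.
mmu-miR-675-5p, chr7:142577112-142577133: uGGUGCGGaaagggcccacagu
mmu-miR-675-3p, chr7:142577078-142577099: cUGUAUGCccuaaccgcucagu

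The precursor gene Mir675 had 0 counts in each tumour, which says nothing of the mature microRNA in these libraries. Igf2 shares 3598 nt with Gm49394, a gene model not used here, and it overlaps Igf2os on the opposite strand, which had 4, 0, 1 and 3 counts. In tumours 2 to 4 Igf2 had 2, 5 and 9 counts, and the antisense gene no more than 3.

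No gene with a mean of at least 10 CPM lay within 0.25 of Igf2 or of H19. The closest to H19 were Bex1, a small neuronal adaptor, at 38.1, 1.39, 0.617 and 3.09 CPM, and Cldn6, a tight junction protein of the embryo, at 84.8, 7.09, 1.36 and 15.2 CPM. For Igf2 they were Nup62cl, at 32.5, 2.56, 2.10 and 5.59 CPM, and Fabp4, a fatty acid binding protein, at 77.2, 6.97, 5.68 and 11.1 CPM. These genes were picked for likeness to Igf2 or H19, so their shared peak in tumour 1 comes from the choice. Bex1 and Nup62cl were above 10 CPM in tumour 1 alone, so only that tumour brought their means over the minimum.

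Genes further along the same imprinted region of chromosome 7, chosen here after their values were seen, did not share 1 highest tumour. Cdkn1c, the cyclin-dependent kinase inhibitor p57, was measured at 46.5, 12.9, 5.31 and 18.6 CPM and Phlda2, a growth-restraining placental gene, at 2.64, 1.39, 0.864 and 2.14 CPM. Both were highest in tumour 1, although the 24 counts of Phlda2 there and its 18 in tumour 4 are close. Cd81, a tetraspanin that lies between them and H19, was highest in tumour 3, at 268, 264, 415 and 324 CPM, and Ascl2, a transcription factor of placenta, had 2, 3, 5 and 2 counts.

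Receptors and most binding proteins of the IGF family were measured in every tumour, except Igfbp1, which had 0 counts throughout. Of 13 genes of the IGF axis 12 were tested and 11 passed, beside 76.7% of all genes, with a median SD of log2 CPM of 0.42. Igf1r, the signalling receptor, stood at 9.35 to 14.3 CPM and Igf2r, which clears IGF2, at 125 to 199 CPM, both named here after their values were seen. The most abundant were Igfbp5, at 314, 676, 70.1 and 530 CPM, Igfbp7, at 300 to 377 CPM, and Igfbp3, at 152 to 373 CPM. Igfbp5 and Igfbp6 varied most, the latter at 0.348 to 4.04 CPM with 3 counts in tumours 2 and 3. Igfbp5 was highest in tumour 2, and the 30 and 34 counts of Igfbp6 in tumours 1 and 4 are close. Of the 12 tested genes, 2 were highest in tumour 1, the tumour with Igf2, and these were Igfbp3 and Igf2r.

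Dlk1 (ENSMUSG00000040856, chr12:109452823-109463336, plus strand) was measured at 20.8, 973, 211 and 186 CPM in tumours 1 to 4 (mean 348 ± 425, SD, n = 4). Tumour 2 was the highest by a wide margin and tumour 1 the lowest, with tumours 3 and 4 close together. Highest and lowest differed 46.8-fold (40.5 to 54.3), and the coefficient of variation, 89.4%, stood beside 23.0% for genes as abundant. Its SD of log2 CPM, 2.28, exceeded that of 99.0% of all tested genes and was 1.33 without tumour 1.

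Meg3 (ENSMUSG00000021268, chr12:109541001-109571726, plus strand) was measured at 244, 1153, 3338 and 1067 CPM in tumours 1 to 4 (mean 1451 ± 1323, SD, n = 4). Tumour 3 held the most and tumour 1, as for Dlk1, the least, 13.7-fold lower (13.1 to 14.3). The coefficient of variation was 67.1% beside a trend of 24.1%, and the SD of log2 CPM, 1.55, exceeded that of 97.8% of tested genes and was 0.92 without tumour 1. The chi-square statistics of Dlk1 and Meg3, 13584 and 31265 on 3 degrees of freedom, gave p-values below the smallest number the software can hold.

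Dlk1 and Meg3 were both lowest in tumour 1 but did not follow one another above it. Meg3 CPM was 11.7, 1.19, 15.8 and 5.72 times Dlk1 CPM in tumours 1 to 4. Per kilobase of exon Dlk1 was the lower of the pair in tumours 1, 3 and 4 and the higher in tumour 2, by -1.87, -2.30, -0.84 and 1.43 on the log2 scale in that order. The mean, -0.90 ± 1.67 (SD, n = 4), did not exceed the spread (exact sign-flip permutation p = 0.375, adjusted 0.656). This rests on length and on tumour 2, since with no length correction the mean was -2.57 ± 1.67 (SD, n = 4) with Dlk1 lower in 4 of 4 tumours, and without tumour 2 it was -1.67 ± 0.75 (SD, n = 3) per kilobase.

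The other noncoding RNAs of the domain kept close to Meg3. Rian, which hosts small nucleolar RNAs, was measured at 210, 1477, 2531 and 1089 CPM, and Mirg, which hosts a microRNA cluster, at 8.80, 48.9, 103 and 37.6 CPM, with the tumours in the same order as for Meg3. Meg3 CPM was 0.781 to 1.32 times that of Rian and 23.6 to 32.5 times that of Mirg, a far narrower range than its ratio to Dlk1. Mirg was, with N28178, 1 of 2 genes of 10268 within 0.25 of Meg3.

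At the far end of the domain Dio3, which inactivates thyroid hormone, stood at 2.09, 0.465, 0.740 and 0.357 CPM, from 19, 4, 6 and 3 counts. Dio3 was highest in the tumour where Meg3 and Dlk1 were lowest, but its mean lay under the minimum and it was not tested. Rtl1, a retrotransposon-derived gene of the domain, had 0 counts in every tumour. No gene lay within 0.25 of Dlk1. The closest were Ryr3, a calcium release channel, Cd177, a surface protein of neutrophils, and Scgb3a2, a secretoglobin of airway club cells. They lay 0.529 to 0.711 away. Having been picked for likeness to Dlk1, they were all highest in tumour 2 by that choice.

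**Figure D3:**
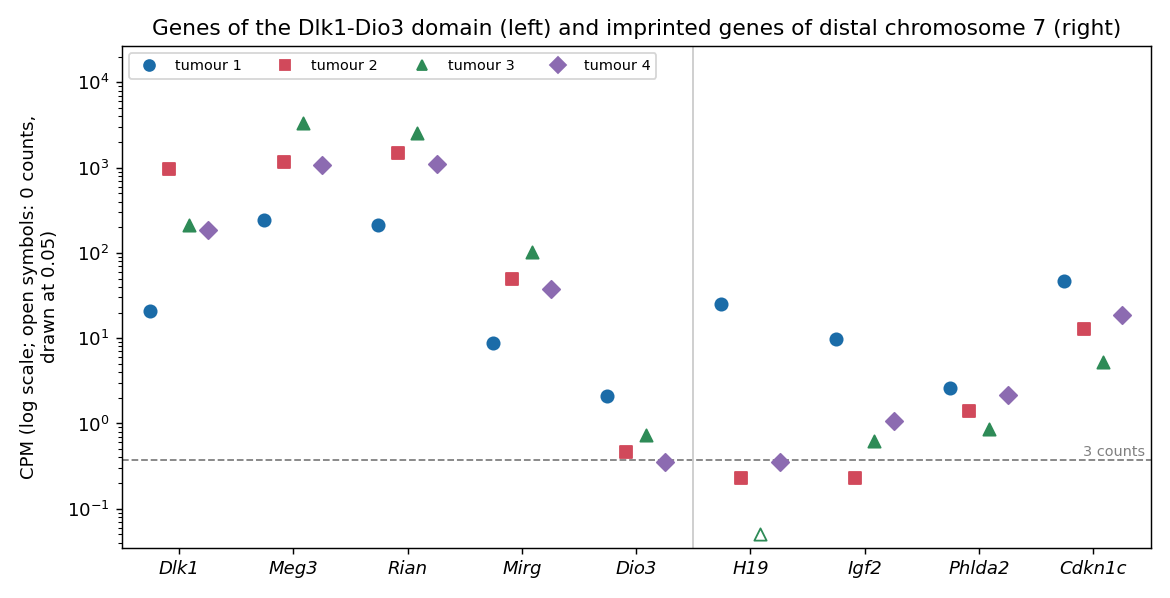
CPM (log axis) of imprinted genes in each tumour, with Dlk1, Meg3, Rian, Mirg and Dio3 of chromosome 12 on the left and H19, Igf2, Phlda2 and Cdkn1c of chromosome 7 on the right. Open symbols mark a count of 0 and the dashed line 3 counts. Tumour 1 was the lowest for Dlk1, Meg3, Rian and Mirg and the highest for Dio3 and the 4 genes on the right. Dio3, Phlda2 and Cdkn1c were chosen after their values were seen. Cd81, of the same region of chromosome 7 and not drawn, was highest in tumour 3.

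The start of Meg3 is shown because Meg3 had the highest mean level of the 10 genes. RefSeq places 2 starts for Meg3, and the 250 bases before the first, chr12:109540746-109540995 on the plus strand of GRCm38.p6, hold a CRE (TGACGTCA) followed by a TATA box (TATAAA, and TTTATA as its reverse, which overlap), both in capitals.
Meg3 upstream: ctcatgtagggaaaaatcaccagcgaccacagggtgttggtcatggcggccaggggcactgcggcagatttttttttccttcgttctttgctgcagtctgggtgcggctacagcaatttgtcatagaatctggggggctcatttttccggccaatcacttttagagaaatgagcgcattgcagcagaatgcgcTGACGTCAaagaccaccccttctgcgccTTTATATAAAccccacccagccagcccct

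Both motifs and the GC box, GGGCGG, were searched on both strands. Of the 250-base windows before 32851 starts in the same table, 1.55% held the CRE letters, 12.4% the TATA box letters and 32.7% the GC box letters. The window before Meg3 held no GC box letters, and the window before Dlk1 held none of the 3 motifs. The presence of these letters is a description of sequence and was not tied to the level of Meg3 by any measurement here.

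Meg3 shares 842 nt at 99.9% identity with Gm27000 on the X chromosome, which had 0, 4, 14 and 8 counts, and 805 nt with Gm26906 on the opposite strand, which had 0, 0, 1 and 0. Both were negligible beside the 2219 to 27047 counts of Meg3. Dlk1 has no annotated overlap or near-identical copy.

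On the common scale of CPM per kilobase of exon, the mean levels ran from Meg3, 80.2, and Dlk1, 61.5, through Hmga1, 8.09, H19, 2.59, Igf2bp2, 1.38, and Hmga2, 1.18, to Igf2, 0.507. The ranges of Meg3 and Dlk1 over the tumours, 13.5 to 185 and 3.68 to 172, overlapped almost wholly. Those of Igf2bp2, 0.728 to 2.46, and Hmga2, 0.346 to 2.44, did so too, and the place of H19 rests on tumour 1, at 10.1.

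Among 21 imprinted genes outside the 10, 20 were found in the table and 14 tested, and 14 of 14 passed the chi-square test, beside 76.7% of all genes, with a median SD of log2 CPM of 0.75. Gnas, the stimulatory G protein subunit, stood at 546 to 810 CPM, and Plagl1, a zinc finger regulator of imprinted genes, stood at 71.7 to 96.0 CPM. Peg10, a retrotransposon-derived gene of placenta, varied most, at 67.5, 38.1, 1.11 and 9.28 CPM, and was lowest in tumour 3, where Meg3 was highest. Peg3, a zinc finger protein, was highest in tumour 4, at 36.9 CPM, against 3.48 to 13.0 in the others. Of the 14 tested, 7 were highest in tumour 1, Peg10 among them, 1 in tumour 2, 4 in tumour 3 and 2 in tumour 4. The highest tumour thus differed between loci, with tumour 1 the most frequent.

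Of 10 other oncofetal genes, 8 were tested and 8 passed, beside 76.7% of all genes, with a median SD of log2 CPM of 0.84. Sox4, a transcription factor of progenitors, was measured at 285, 291, 180.0 and 277 CPM, Gpc3, a proteoglycan, at 118, 243, 312 and 105 CPM, and Afp, alpha-fetoprotein, at 76.1, 61.6, 11.5 and 59.8 CPM. Of the 8, 5 were lowest in tumour 3, which was also the lowest for Hmga1 and Hmga2. Tpbg, the trophoblast glycoprotein, was among them, at 0.247 CPM against 1.07 to 6.62 in the others. Sall4, a stem cell factor, had 0 counts in every tumour, as did Lin28b.

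Lung identity, the property that Hmga2-positive tumours are known for losing, was measured beside the members by 11 genes, of which 11 of 11 passed the chi-square test, beside 76.7% of all genes. Their summed level was 30453, 50278, 45297 and 53741 CPM in tumours 1 to 4, a sum that Sftpc leads. It was lowest in tumour 1, where 6 of 11 were lowest, and the other 5 were lowest in tumour 3, the tumour with the least Hmga2. Tumour 2, with the most Hmga2 and Igf2bp2, was the lowest for 0 of 11 and the highest for 4. Tumour 4 was likewise the lowest for 0 and the highest for 4, while tumour 3 was the highest for 3 and tumour 1 for 0. The relation of Hmga2 to lung identity was not tested. Nkx2-1, the lung lineage factor, stood at 290, 306, 291 and 396 CPM, named after its values were seen, and Sftpc, a surfactant protein, at 17722 to 29617 CPM.

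**Figure D4:**
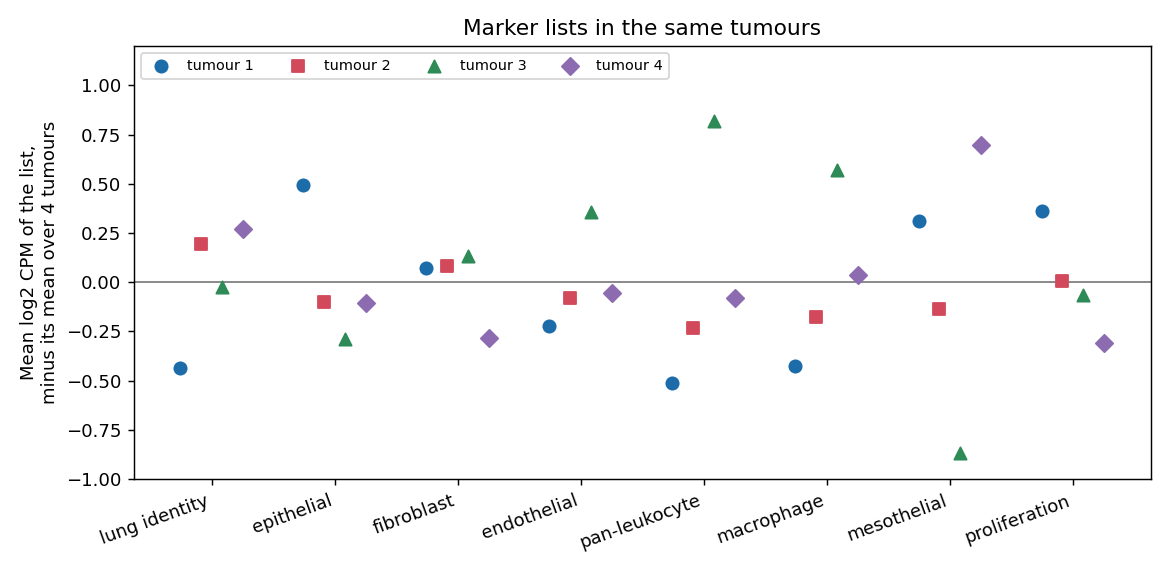
Mean log2 CPM of the tested genes of each of 8 marker lists in each tumour, minus the mean of the list over the 4 tumours, so that 0 is the average tumour. Tumour 1 was the lowest for lung identity and the highest for epithelial and proliferation genes, and tumour 3 was the highest for pan-leukocyte and macrophage genes.

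Other cell types and growth moved with some of these results. In tumour 1, the tumour with Igf2, H19 and the most Hmga1, 4 of 5 proliferation genes were highest (sums of 557, 450, 447 and 369 CPM in tumours 1 to 4) and 3 of 4 epithelial genes were highest (3972, 2587, 2488 and 2632 CPM), while 3 of 4 pan-leukocyte genes were lowest. In tumour 3, with the most Meg3, 4 of 4 pan-leukocyte genes (104, 124, 252 and 144 CPM) and 4 of 4 macrophage genes (110, 123, 222 and 138 CPM) were highest, as were 3 of 5 endothelial genes (194, 203, 269 and 204 CPM). Cxcr2, a neutrophil chemokine receptor at 3.08, 15.8, 29.1 and 9.99 CPM, was the third closest gene to Meg3, after N28178 and Mirg. At a distance of 0.280 it lay outside the limit of 0.25.

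Fibroblast genes, summed, lay between 325 and 568 CPM with their lowest value in tumour 4, the tumour in which no tested member was highest or lowest. Mesothelial genes, summed, lay between 19.3 and 111 CPM with their highest value in tumour 4. Msln leads that sum, at 33.7, 15.8, 18.4 and 109 CPM in tumours 1 to 4. Upk3b went another way, at 2.53, 2.90, 0.864 and 1.31 CPM, highest in tumour 2. Within these lists Wt1 was at 0 in tumour 3 and no other marker was at 0. Epithelial and lung genes, the defining markers of the labelled tissue, were measured in every tumour. The part of these cell types in the spread of Igf2, H19, Hmga1 and Meg3 was not tested.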

How the data were processed

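Polyadenylated RNA from 4 KP lung tumours (1 library each, 1 group) was measured with a stranded kit from 500 ng of total RNA and single-end reads of 85 nt. Per the labels and methods, the authors trimmed reads with Cutadapt, aligned to mm10 by HISAT2 and counted reads per Ensembl gene, and the submitters' processing notes name bcl2fastq 2.17, cutadapt 1.4.2 and featureCounts 1.4.4. The strand setting and annotation release were not given in the sources used here. The deposited count tables hold raw counts, and the combined table and those of single tumours were equal in 156068 of 156068 values. A second deposited file gives log2 values that the authors normalised by TMM and voom, used as an alternative.

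Members were the rows whose symbol equals a member name. The members, the gene lists and the tests were chosen with earlier results of these data known. Effective library sizes came from TMM in edgeR 4.0.16 under R 4.3.3, and for log2 CPM 0.5 was added to counts and 1 to effective sizes. Tests covered the 14225 of 39017 genes whose CPM averaged 1 or more. Spread was tested by chi-square on 3 degrees of freedom against Poisson expectations, which was tested on simulated data. A tumour stood apart where its gap over the whole log2 range exceeded Dixon's limit of 0.829. Pairs were compared by an exact two-sided sign-flip test over 7 pairs, and the 2 pairs with both genes at the floor entered the adjustment with p = 1. Genes were named by rule: the members, Lin28a, per list the 3 most abundant and the 2 most variable genes, overlapping or near-identical genes (at least 80 nt at 97% identity, BLAST 2.17.0), and for each member the 3 genes nearest in pattern. Genes named beside the rule are Igf1r, Igf2r, Cdkn1c, Phlda2, Cd81, Ascl2, Igfbp1, Dio3, Rtl1, Peg3, Sall4 and Nkx2-1, whose values had been seen. Items withheld for evaluation are not reported here. Positions are those of GENCODE M21 on GRCm38, in which 37607 of the 39017 identifiers were found. Intervals are 95% Poisson or binomial intervals, and with no molecular identifiers they and the floor of 3 counts cover counting error only. Alternatives were library sizes alone, DESeq2 1.42.0 size factors, other filters and added counts, the deposited log2 values, gene lengths and leaving out each tumour.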

Additional observations from a re-analysis of the deposited data

Results flagged for a closer look

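Among 66 named genes and 12 lists, 1 tumour stood apart from the other 3 by Dixon's ratio in 5 cases, where chance gives about 1 in 20, or 3.9 cases. None was 1 of the 10 members. Of the 5, 3 were low values in tumour 3, which also held the lowest Hmga1 and Hmga2. They were Afp at 11.5 CPM, Ago2 at 93.4 CPM and Sox4 at 180.0 CPM. Lamp3, a lysosomal gene of alveolar type 2 cells, was low in tumour 1 at 420 CPM, against 1867 to 2515 in the others. The mean log2 CPM of the fibroblast list was low in tumour 4, at 4.96.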

How the results depend on the processing

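Of 179 recomputed values of 21 results, 174 were scored as unchanged. For counts and shares of genes this meant staying within a fixed fold of the main value. A fall from 7 to 5 members passing was thus scored as unchanged. Mean levels had to move by less than their SD, and pair differences had to keep their sign. With a minimum of 10 CPM, 4 of 4 members tested passed the chi-square test, beside 85.3% of all genes, and with no minimum 53.5% of 21175 genes passed. With no minimum, 1 of 9 members, Igf2bp3 with its single count, had a tumour apart, beside 16.3% of all genes. Leaving out each tumour gave 5 to 7 members passing, 5 of 5 tested without tumour 1, since Igf2 and H19 then fell below the minimum, and 62.3 to 71.9% of all genes. The lists then held 6 to 9 genes passing for let-7, 9 to 11 for the IGF axis, 11 to 14 for imprinting, 7 to 8 for other oncofetal genes, 8 to 11 for lung identity and 3 to 5 for proliferation, the 3 without tumour 1. The difference between Igf2 and H19 ranged from -1.19 to 0.42 over these, reversed without tumour 1, and was 0.89 with no length correction, values that rest on H19 counts at or under the floor in tumours 2 to 4. Dixon's ratio has no limit set here for 3 tumours and was not run with a tumour left out. No paired analysis was possible because all tumours belong to 1 group. The depth limits Igf2bp1, Igf2bp3, Lin28b and, in 3 tumours, H19, whose values at or under 3 counts give bounds only.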
